A study of Mus musculus with 8 samples.

Results

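The SR proteins and the hnRNPs are the main families of RNA-binding proteins that decide which exons of a pre-mRNA are kept. The genes described here are the 31 protein-coding mouse genes with an Srsf or Hnrnp symbol, 11 of SR proteins and 20 of hnRNPs, among 53801 gene IDs with a count in each library's table. Membership was set by symbol, at a time when earlier results of these data were known. The 2 genes with pseudogene symbols, Hnrnpa1l2-ps and Hnrnpa1l2-ps2, with 1 count over all libraries, were left out. All 31 are listed in every library.

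The cells were resting B cells and resting T cells from spleens of B6 mice, with no allele or agent that differs between them, sorted on magnetic columns and held in RPMI medium for 2 hours. Ribosome profiling, which sequences the mRNA fragments (footprints) that ribosomes shield from nuclease, was done on B cells (libraries 1 and 3) and T cells (libraries 1 and 2) after 100 µg/ml cycloheximide for 15 minutes. RNA-seq was done on B cells (libraries 1 and 3) and T cells (libraries 1 and 4) without it, so that the drug went with the assay in every comparison of footprints with mRNA. Each group therefore held 2 libraries. The ages of the mice, and whether several were pooled, were not given in the sources used here.

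SR proteins carry an RNA recognition domain and a tail rich in arginine and serine. They bind exon sequences, draw the spliceosome to nearby splice sites, and several of them also accompany the finished mRNA to the cytoplasm. hnRNPs coat nascent transcripts and often repress exons, by binding near splice sites or looping an exon out. Both families are known to control their own amounts by alternative splicing: many of their genes make a second transcript form with a poison exon or a retained intron that is destroyed by nonsense-mediated decay or kept in the nucleus. In lymphocytes the families are known for the alternative exons of Ptprc, which encodes the phosphatase CD45, and the hnRNP L pair, Hnrnpl and Hnrnpll, silences these exons. Counts per gene do not tell the transcript forms apart.

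The start regions of 4 members are shown because sequence at the transcript start bears on how an mRNA is translated or transcribed. Hnrnpa0 and Srsf5 are the members with a start tract, a C at the annotated start followed by at least 4 pyrimidines, which in other mRNAs marks translation under growth control. Srsf2 and Srsf3 are those with the letters TATAAA in the 50 bases before a start. Each line gives 60 bases before and 20 from the start, 5′ to 3′ on the gene's strand, from RefSeq in GRCm38.p6, with the tract or TATAAA in capitals.
Hnrnpa0, chr13:58128537-58128616, minus strand: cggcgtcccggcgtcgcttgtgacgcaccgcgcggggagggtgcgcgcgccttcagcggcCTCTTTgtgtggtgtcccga
Srsf5, chr12:80945439-80945518, plus strand: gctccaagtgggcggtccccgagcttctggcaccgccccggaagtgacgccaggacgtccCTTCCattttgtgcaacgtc
Srsf2, chr11:116853075-116853154, minus strand: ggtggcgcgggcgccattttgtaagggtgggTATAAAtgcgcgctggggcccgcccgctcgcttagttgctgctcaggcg
Srsf3, chr17:29032600-29032679, plus strand: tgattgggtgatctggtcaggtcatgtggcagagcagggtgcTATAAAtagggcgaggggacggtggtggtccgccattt
RefSeq gave 41 starts for 29 of the 31 members; Hnrnpll and Hnrnpul2 had no entry. The start tract, read on the gene's strand, was found at 2 of the 41 starts, or 4.88%, against 2.21% of 21263 starts of all protein-coding genes. TATAAA was found at 2 starts, or 4.88%, against 3.17%, and on the opposite strand at 0 of the members' starts against 0.955%. The members' starts held a median of 31 CG dinucleotides in 300 bases, against 13 over all protein-coding genes. These matches are letters in a window and no more.

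The footprint totals were 236810 and 232568 counts for B cells (libraries 1 and 3), while T cells (libraries 1 and 2) gave 627833 and 136433. The RNA-seq totals were 9466190 and 8989740 counts for B cells (libraries 1 and 3), while T cells (libraries 1 and 4) gave 10050986 and 8945905. Levels are given in CPM, here each count relative to its library's total over the genes tested in that assay, scaled by TMM. These genes differ between the assays, so CPM of footprints and of mRNA are not on the same scale. Footprints over mRNA was fitted on all 8 libraries instead. Marker CPM are relative to the library's total over all genes, without TMM. Levels in CPM are not divided by transcript length, so they compare libraries and not genes. The members took 0.730% to 0.958% of footprint counts and 0.845% to 0.912% of RNA-seq counts. A member had a median of 45.5 counts in a footprint library against 2636 in an RNA-seq library, so footprint values carry the larger errors. Markers of the sorted lineage were abundant in each group, but 11 T cell markers also summed to 74.9 CPM in B cell RNA-seq library 1 and 705 CPM in library 3. T cell RNA-seq had 5785 and 6929 CPM. Small nuclear and nucleolar RNAs took 2.76% to 18.6% of footprint counts, which differed between libraries of the same cell type.

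Most members were measured at similar mRNA levels in B and T cells, as the plot of values by library shows. Footprint levels carried larger errors, and for most members similar levels were not shown. Among the members with the highest CPM were Srsf5, which shares its domain layout with Srsf4 and Srsf6, and Hnrnpa2b1, an exon repressor that also sorts RNAs for transport. Srsf5 had 679 and 573 CPM of footprints in B cells, against 375 and 637 CPM in T cells. Its mRNA had 839 and 587 CPM in B cells, against 719.6 and 576 CPM in T cells. In both assays the ranges of the cell types overlapped. Hnrnpa2b1 had 1446 and 936 CPM of footprints in B cells, against 971 and 788 CPM in T cells. Its mRNA had 661 and 581 CPM in B cells, against 629 and 633 CPM in T cells, so that the ranges overlapped again. Hnrnpu, a chromatin-bound scaffold protein of the nucleus, had 1404 and 904 CPM of footprints in B cells, against 753 and 772 CPM in T cells. Both B cell libraries were above both T cell libraries. Its mRNA had 616 and 559 CPM in B cells, against 643 and 579.7 CPM in T cells, with no such separation. Hnrnpk, which binds C-rich RNA and DNA, had 655 and 478 CPM of footprints in B cells, against 348 and 374 CPM in T cells. Its mRNA had 519 and 499 CPM in B cells, against 466 and 505 CPM in T cells.

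**Figure D1:**
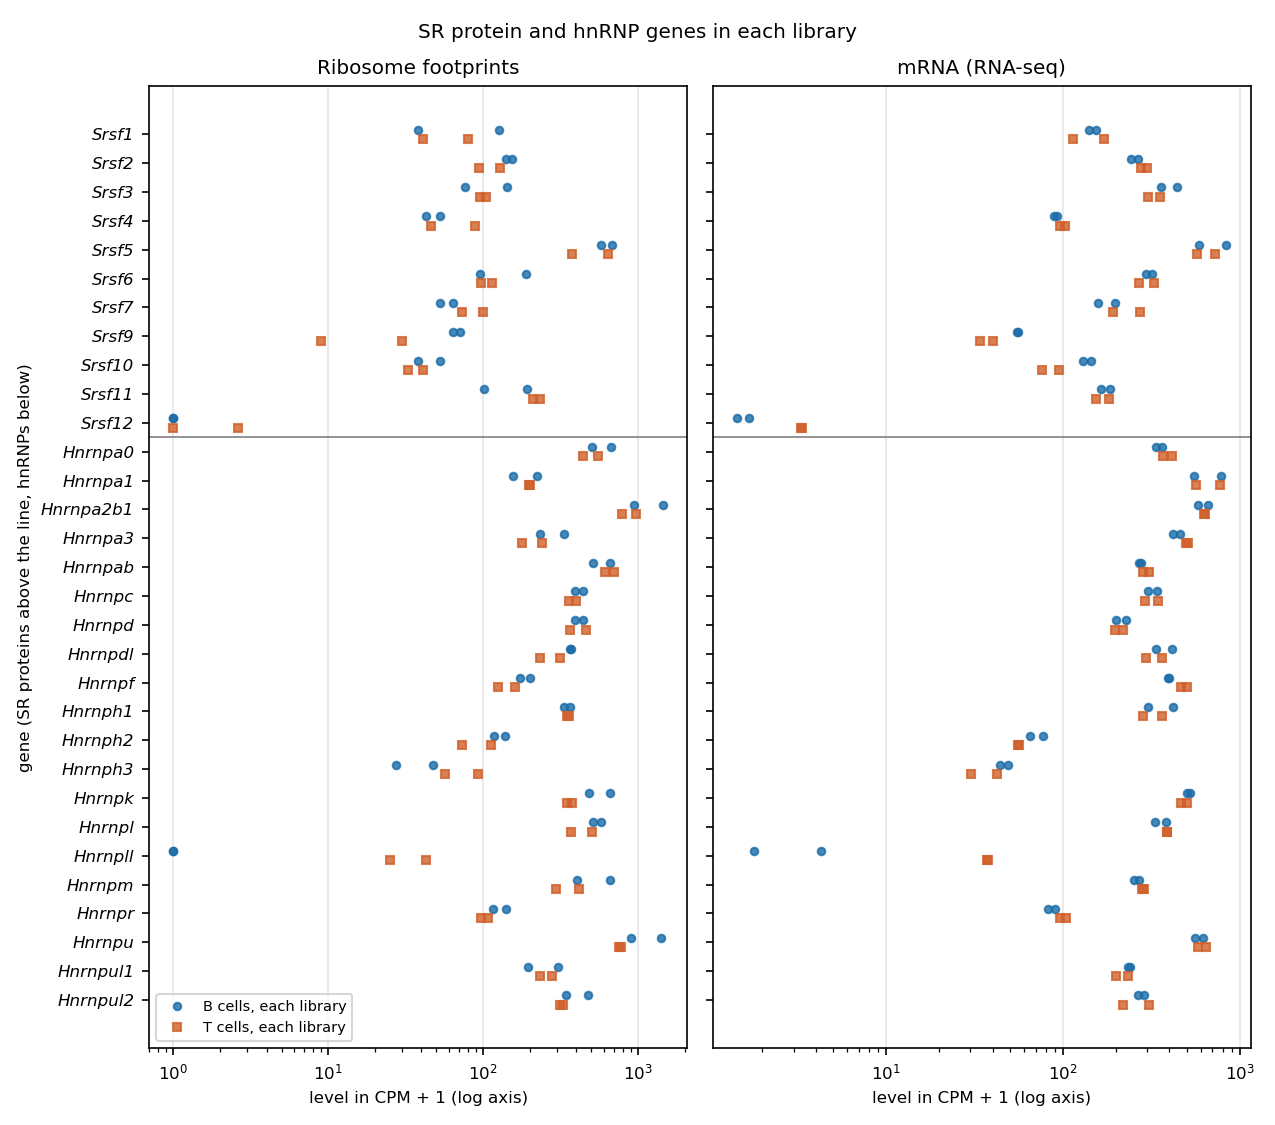
Level of each of the 31 genes in CPM + 1 on a log axis, in footprints on the left and mRNA on the right; circles are the 2 B cell libraries and squares the 2 T cell libraries. Hnrnpll and Srsf12 are the genes called different between the cell types in mRNA, by the edgeR test.

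In mRNA, 2 of the 31 members differed between B and T cells, Hnrnpll and Srsf12, and both were lower in B cells. The edgeR quasi-likelihood test with Benjamini-Hochberg adjustment over 13929 genes called 9.06% of all genes lower and 9.40% higher in B cells, or 18.5% in all. No member was called higher. The other 29 members had log2 differences, B over T cells, between -0.39 and 0.69, and 27 of them lay within 0.5 of 0. For 28 of these 29 the 95% interval of the difference lay inside -1 to 1, that is within a doubling either way. The median over the 31 was 0.02, beside -0.01 over all genes tested. Both libraries of one cell type were above both of the other in 16 of 31 members, 5 of them higher and 11 lower in B cells. This is 51.6% of the members against 61.2% of all genes tested.

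Hnrnpll, the paralogue of hnRNP L that is known for silencing CD45 exons in activated and memory T cells and in plasma cells, lies on chromosome 17 at 80029487 to 80062268 (ENSMUSG00000024095, GRCm38.p6). Its mRNA had 7 and 30 counts in B cells, against 359 and 345 in T cells, or 0.786 and 3.28 CPM against 36.5 and 36.5 CPM. The B cell libraries were both far below the T cell libraries and differed from each other. The log2 difference was -4.15 ± 0.61 (SE; edgeR adjusted p = 0.0165). Leaving out B cell library 1 gave -3.46 and leaving out library 3 gave -5.51, and the call was kept when any of the 4 libraries was left out. In footprints Hnrnpll had 0 and 0 counts in B cells, against 26 and 3 in T cells. A floor of 3 counts over the B cell group, or 7.43 CPM, lay 4.42-fold below the T cell mean of 32.8 CPM. That mean rests on the 26 and 3 counts, and its error is not part of the 4.42-fold value. The footprint counts of Hnrnpll were too few to pass the filter for testing. With no filter beyond 1 count Hnrnpll was called lower in footprints (adjusted p = 0.00291 in edgeR). With all 8 libraries in 1 model it was not called (adjusted p = 0.100 in edgeR).

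Hnrnpl, which binds CA repeats and is itself a silencer of CD45 exons, was not called in either assay in the same cells. Its mRNA had 331 and 379 CPM in B cells, against 388 and 386 CPM in T cells (log2 difference -0.13 ± 0.16, edgeR adjusted p = 0.652). Its footprints had 510.1 and 578 CPM in B cells, against 505 and 366 CPM in T cells (0.30 ± 0.40, adjusted p = 0.741). Of the counts of both paralogues together, Hnrnpll made 0.237% and 0.857% in B cell mRNA, against 8.59% and 8.63% in T cell mRNA. In footprints it made 0% of 109 and of 110 counts in B cells, against 7.62% and 6.12% in T cells. T cell markers and Hnrnpll were both higher in B cell RNA-seq library 3 than in library 1. Per 100 counts of the 11 markers there were 0.987 (library 1) and 0.473 (library 3) Hnrnpll counts in B cell mRNA, against 0.617 and 0.557 in T cell mRNA. The B cell rates rest on 7 and 30 Hnrnpll counts, so whether the 2 rose in proportion cannot be told. All 11 markers had counts in both B cell RNA-seq libraries. In B cell footprints, where Hnrnpll was at 0, the markers summed to only 21 and 59 counts, or 88.7 and 254 CPM. T cell footprints had 7537 and 4808 CPM of the markers, with 0.549 and 0.457 Hnrnpll counts per 100 marker counts. Cd6 was at 0 in both B cell footprint libraries and Lat in library 1. The part of T cell RNA in the B cell value was not tested. Hnrnpll overlaps the genes 4933407O12Rik, Gm22215 and Gpx4-ps1, and whether counting used the strand was not given in the sources used here.

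**Figure D2:**
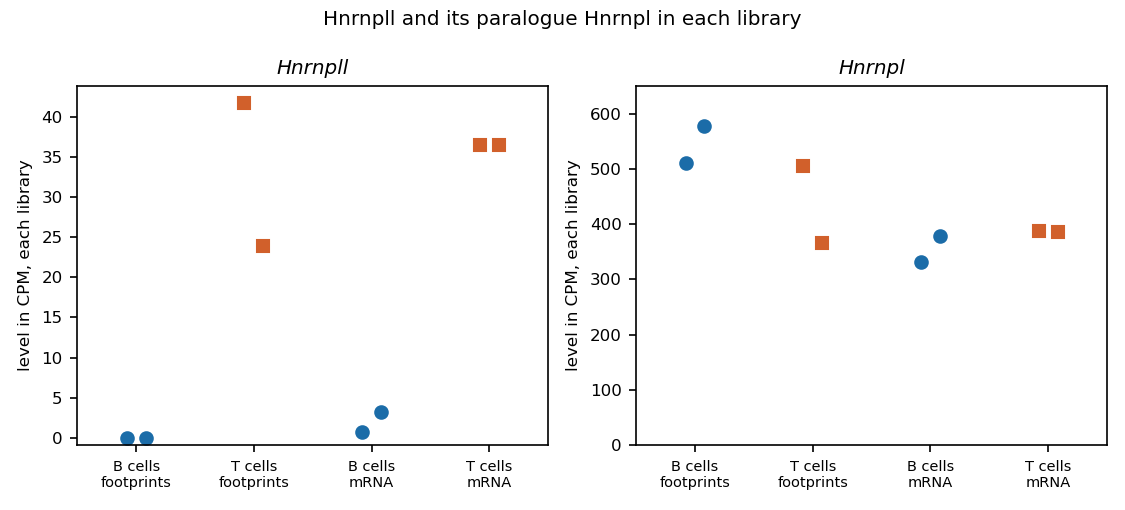
Level of Hnrnpll (left) and Hnrnpl (right) in CPM in every library, with circles for B cells and squares for T cells; each axis has its own scale. Hnrnpll lies at 0 in both B cell footprint libraries and under 4 CPM in both B cell mRNA libraries, against 23.9 CPM or more in T cells, while the B and T cell points of Hnrnpl lie between 331 and 578 CPM.

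Srsf12, a relative of Srsf10 described as a splicing repressor, was the other member called, at counts near the limit of detection. It had 6 and 4 counts in B cell mRNA, against 23 and 22 in T cells (log2 difference -2.05 ± 0.47, edgeR adjusted p = 0.0466). The call was lost when any 1 of the 4 libraries was left out (adjusted p = 0.133 to 0.259, log2 difference -2.37 to -1.76) and in 4 other settings: DESeq2 (adjusted p = 0.108), limma voom (0.0612), no filter beyond 1 count (0.0725) and all 8 libraries in 1 model (0.0598). Srsf12 had 0 and 0 footprint counts in B cells, against 1 and 0 in T cells.

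Srsf10 and Srsf9 had higher estimates in B cells that missed the threshold narrowly. Srsf10, which turns into a splicing repressor when it loses its phosphates under heat shock, had 143 and 129 CPM of mRNA in B cells, against 74.7 and 94.5 CPM in T cells (log2 difference 0.69 ± 0.16, edgeR adjusted p = 0.0518). Srsf9, a small SR protein, had 53.7 and 54.8 CPM in B cells, against 33.1 and 39.4 CPM in T cells (0.58 ± 0.15, adjusted p = 0.0619). Both B cell libraries were above both T cell libraries for each gene. Srsf9 and Srsf10 were called higher in B cells in DESeq2 (adjusted p = 0.0387 and 0.00892) and when protein-coding genes were tested alone (edgeR adjusted p = 0.0486 and 0.0419). In limma voom 1 SR protein was called higher. No SR protein was called higher with RLE scaling, with no filter beyond 1 count or with all 8 libraries in 1 model.

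Libraries of the same cell type differed from each other in mRNA, and in a like way in B and T cells. Hnrnpa1, a repressor that binds near weak splice sites, had 784 CPM in B cell library 1 and 548 CPM in library 3, and 772 CPM in T cell library 1 and 568 CPM in library 4. Srsf5, Srsf7 and Hnrnph1 showed the same order. In all, 17 of 31 members were higher in the libraries numbered 1 in both cell types and 5 were lower in both, a same sign in 71.0% of members beside 67.6% of all genes tested. The libraries numbered 1 had 2362 Xist counts in B cells and 1437 in T cells, against 2 and 3 in the other libraries, and 8 and 6 counts of 4 Y-linked genes against 1616 and 1575. The mice's sex and any batch that goes with these numbers cannot be told apart here. A fit with a term that sets libraries numbered 1 apart was added after the data were seen and has 1 residual degree of freedom, and in it 4 of 31 members and 27.0% of all genes were called in mRNA. Hnrnpll (-4.23 ± 0.49, edgeR adjusted p = 0.0112) and Srsf12 (adjusted p = 0.0499) were lower, and Srsf9 (0.58 ± 0.12, adjusted p = 0.0340) and Srsf10 (0.69 ± 0.15, adjusted p = 0.0411) were higher in B cells.

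In footprints, 0 of the 28 members tested differed between B and T cells, against 13.2% of the 4771 genes tested, 8.38% higher and 4.80% lower. Hnrnpll, Srsf10 and Srsf12 had too few footprint counts to be tested. DESeq2 and limma voom also called 0, and 1 member had an unadjusted p under 0.05 in edgeR. The median log2 difference was 0.33, beside 0.02 over all genes tested, and it ranged from 0.15 without T cell library 1 to 0.40 without B cell library 3. Both libraries of one cell type were above both of the other in 13 of 28 members, 10 higher and 3 lower in B cells. Of all genes tested 52.1% were so separated, 25.8% higher and 26.4% lower. The footprint depth left wide intervals, and only 5 of the 28 lay inside -1 to 1.

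**Figure D3:**
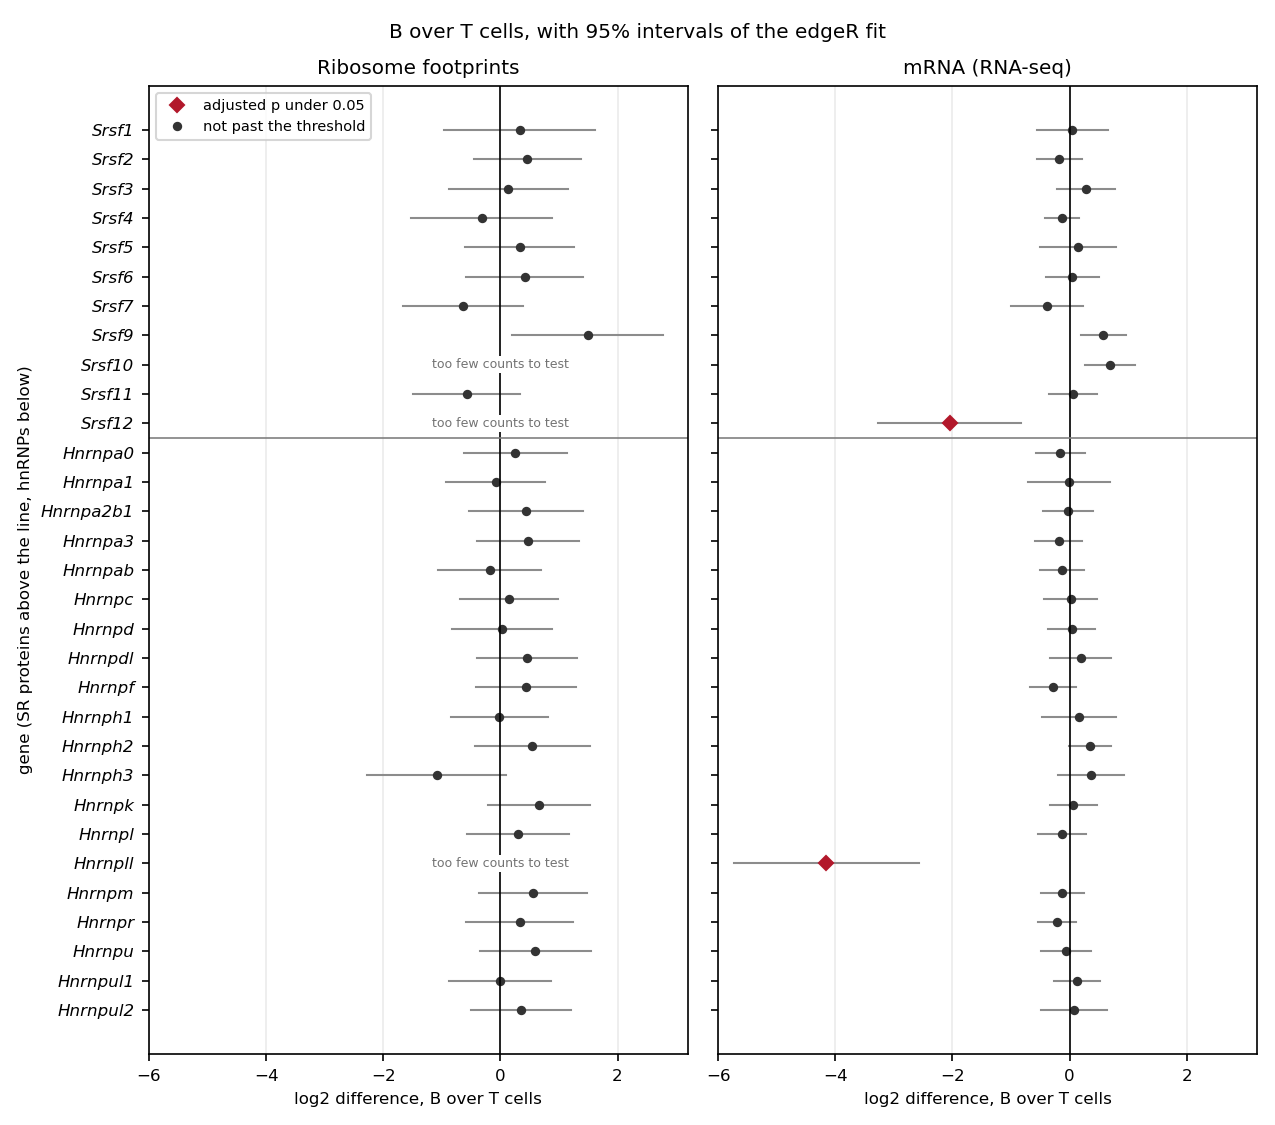
Log2 difference, B over T cells, of each gene with its 95% interval, in footprints on the left and mRNA on the right; diamonds mark an adjusted p under 0.05 in edgeR. In mRNA all but Hnrnpll and Srsf12 lie between -0.39 and 0.69, while the footprint intervals are wider and none of the 28 genes tested passed.

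The footprint estimates farthest from 0 were those of Srsf9 and Hnrnph3, a member of the hnRNP F and H group that binds runs of G. Srsf9 had 15 and 12 footprint counts in B cells, against 18 and 1 in T cells, or 70.2 and 63.1 CPM against 28.9 and 7.96 CPM (log2 difference 1.49 ± 0.59, edgeR adjusted p = 0.140). Hnrnph3 had 10 and 5 counts in B cells, against 57 and 7 in T cells, or 46.8 and 26.3 CPM against 91.5 and 55.7 CPM (-1.09 ± 0.54, adjusted p = 0.258). For both genes the libraries of the cell types did not overlap, with Srsf9 higher and Hnrnph3 lower in B cells. Srsf1, the founding SR protein and a known oncogene product when in excess, differed widely in footprints between libraries of the same cell type. It had 126 and 36.8 CPM of footprints in B cells, against 78.6 and 39.8 CPM in T cells, and 140 and 153 CPM of mRNA in B cells, against 113 and 170 CPM in T cells.

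Translational efficiency, here footprints relative to mRNA, did not differ detectably between B and T cells for any member. Of 31 members 0 were called, as were 0.00% of the 13227 genes tested; DESeq2 called 0 members and 10 genes, and limma voom called 0 of either. The member with an unadjusted p under 0.05 was Hnrnph3 (log2 difference -1.49 ± 0.55, B over T cells; edgeR adjusted p = 0.875), whose mRNA stood at 42.9 and 48.1 CPM in B cells, against 29.2 and 41.3 CPM in T cells. Without Hnrnpll and Srsf12, the estimates ran from -1.49 to 0.88 with standard errors of 0.35 to 0.70, and only 3 of 29 intervals lay inside -1 to 1. The median over 31 members was 0.22, beside 0.03 over all genes tested, and was -0.03 without B cell footprint library 1. The fitted values of Hnrnpll and Srsf12 rest on B cell footprint counts of 0 and are no measure of size.

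Within each cell type, 6 SR proteins and a few hnRNPs were called lower in footprints than in mRNA, at values that many other genes shared. Footprints over mRNA was lower, by the edgeR test over 13227 genes, for 6 of 11 SR proteins in B cells and for 6 of 11 in T cells. Of the 20 hnRNPs, 2 were lower in B cells, and 3 were lower and 1 higher in T cells. In all 8 of 31 members were lower and 0 higher in B cells, beside 12.3% lower and 6.51% higher (18.8% in all) of all genes tested. In T cells 9 were lower and 1 higher, beside 18.6% lower and 8.91% higher (27.5% in all). With RLE scaling 7 were lower and 2 higher in B cells, and 8 were lower and 3 higher in T cells. Srsf2, Srsf3, Srsf4, Srsf6, Srsf7, Srsf10, Hnrnpa1 and Hnrnpf were lower in both cell types, and Hnrnpa3 in T cells. A log2 difference of 0 is set by the scaling, and the median of all genes tested was -0.44 in B cells and -0.54 in T cells. The SR proteins had a median of -1.17 in B cells and -1.30 in T cells, and the hnRNPs had 0.25 and 0.00. The medians of both families thus lay between the all-gene quartiles. Without Hnrnpll and Srsf12, whose footprints were at or near 0 counts in B cells, the medians were -1.10 and -1.33 for SR proteins and 0.34 and 0.01 for hnRNPs. Of the SR proteins 2 of 11 lay above the all-gene median in B cells and 1 of 11 in T cells, against 15 of 20 and 16 of 20 hnRNPs. The difference between the families was not tested, and these positions depended on which genes were tested. With no filter beyond 1 count, where the all-gene median was -1.31 in B cells and -1.30 in T cells, 6 of 11 SR proteins lay above it in each cell type.

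**Figure D4:**
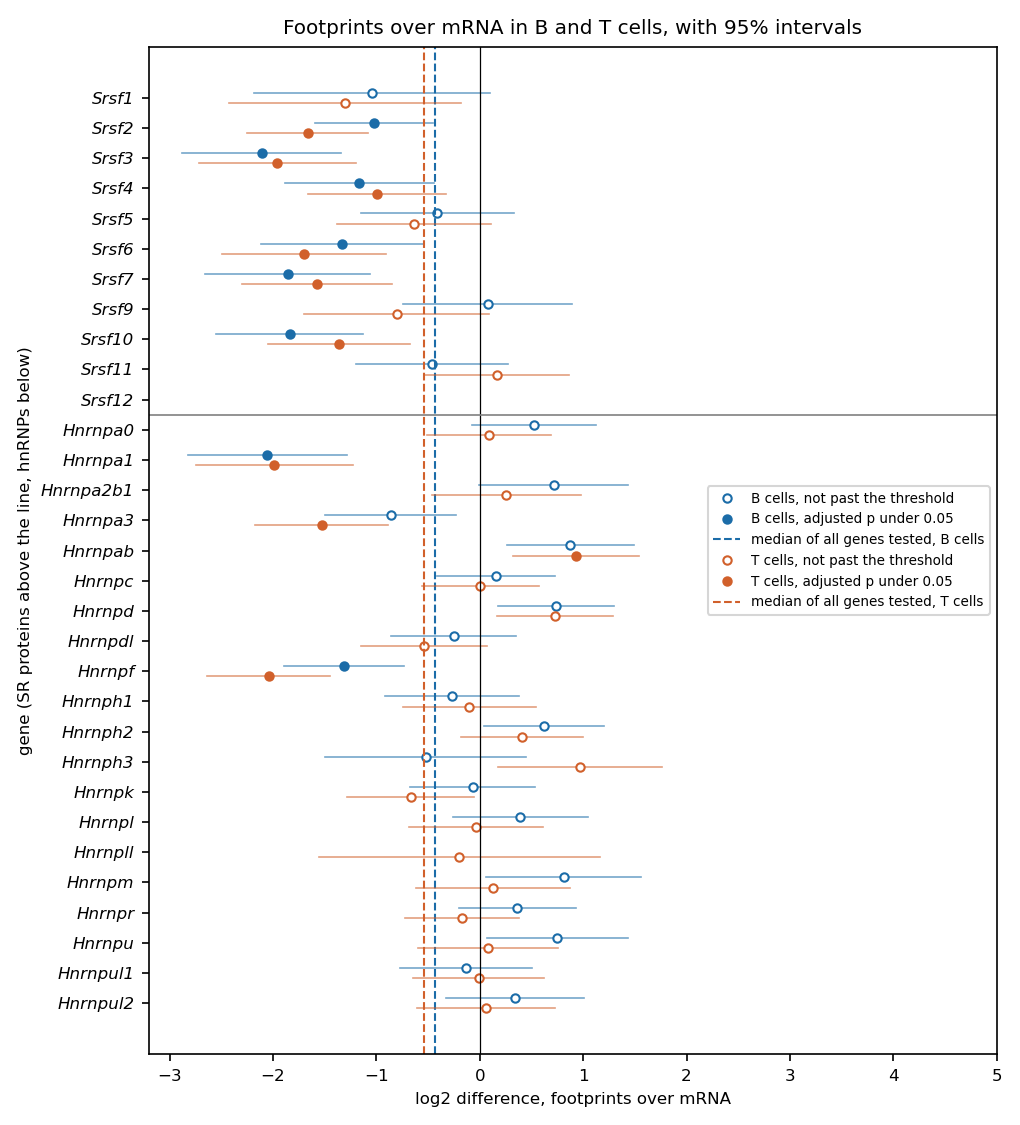
Log2 difference, footprints over mRNA, of each gene with its 95% interval in B cells (blue, upper) and T cells (orange, lower); filled circles passed the edgeR test and dashed lines mark the median of all genes tested in each cell type. Most SR proteins lie left of the dashed lines and most hnRNPs right of them, apart from Hnrnpa1, Hnrnpa3 and Hnrnpf in both cell types, Hnrnph3 in B cells and Hnrnpk in T cells, although 5 of 19 hnRNPs in T cells lay right of the line among genes that pass the footprint filter alone; Srsf12, and Hnrnpll in B cells, are left out for lack of footprints.

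Among the SR proteins Srsf3, the smallest of the family and an adaptor for mRNA export, had the lowest values once Srsf12, with 0 and 0 footprint counts in B cells against 1 and 0 in T cells, is set aside. Srsf3 had 74.9 and 142 CPM of footprints, against 440.4 and 356 CPM of mRNA, in B cells (log2 difference -2.11 ± 0.34, edgeR adjusted p = 0.00490). In T cells it had 94.7 and 104 CPM of footprints, against 351 and 301 CPM of mRNA (-1.96 ± 0.33, adjusted p = 0.00459). The assays were scaled apart, so their CPM are not compared and the ratio is read from the fit. There Srsf3 lay at percentile 24.4 of all genes tested in B cells and 24.1 in T cells. Srsf7, which is close to Srsf3 and carries a zinc knuckle, had 51.5 and 63.1 CPM of footprints, against 197 and 157 CPM of mRNA, in B cells (-1.86 ± 0.35, adjusted p = 0.00917). In T cells it had 99.5 and 71.7 CPM, against 271 and 192 CPM (-1.58 ± 0.32, adjusted p = 0.00898). Srsf6, which binds exon enhancers, had 187 and 94.7 CPM of footprints, against 318 and 292 CPM of mRNA, in B cells, and 112 and 95.6 CPM, against 267 and 326 CPM, in T cells. Its log2 differences were -1.33 ± 0.35 and -1.70 ± 0.35. Srsf10, at the low footprint counts given above, stood at -1.84 ± 0.31 in B cells and -1.36 ± 0.30 in T cells. Srsf2, an enhancer-binding protein whose human gene is mutated in myelodysplasia, stood at -1.02 ± 0.25 and -1.67 ± 0.26. Srsf4 stood at -1.17 ± 0.32 and -0.99 ± 0.29.

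The remaining SR proteins were not called in either cell type. Srsf1 stood at -1.04 ± 0.50 in B cells and -1.30 ± 0.49 in T cells (edgeR adjusted p = 0.175 and 0.0803). Srsf5 stood at -0.41 ± 0.32 and -0.64 ± 0.33, Srsf9 at 0.08 ± 0.36 and -0.81 ± 0.39, and Srsf11 at -0.46 ± 0.32 and 0.16 ± 0.31. Srsf5 carries a start tract and Srsf3 and Srsf2 carry TATAAA in the sequences above; with so few members no relation to the ratio was computed.

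Among the hnRNPs Hnrnpa1 and Hnrnpf stood with the SR proteins. Hnrnpa1 had 154 and 221 CPM of footprints, against 784 and 548 CPM of mRNA, in B cells (log2 difference -2.06 ± 0.34, edgeR adjusted p = 0.00528). In T cells it had 197 and 199 CPM of footprints, against 772 and 568 CPM of mRNA (-1.99 ± 0.33, adjusted p = 0.00426). Hnrnpf, which binds runs of G, had 173 and 199.8 CPM of footprints, against 399 and 394 CPM of mRNA, in B cells (-1.31 ± 0.25, adjusted p = 0.0102). In T cells it had 124 and 159 CPM, against 465 and 501 CPM (-2.04 ± 0.26, adjusted p = 0.00136). Hnrnpa3, a close relative of Hnrnpa1, stood at -0.86 ± 0.28 in B cells (adjusted p = 0.0627) and -1.53 ± 0.28 in T cells (adjusted p = 0.00648). In the test of translational efficiency the B over T cell difference was -0.07 ± 0.46 for Hnrnpa1, 0.73 ± 0.36 for Hnrnpf and 0.67 ± 0.39 for Hnrnpa3, and none passed (adjusted p = 0.875 or above).

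The other hnRNPs had higher values than these, with Hnrnpll in B cells set aside for its 0 footprint counts. Hnrnpab, an A/B-type hnRNP, had 704 and 613 CPM of footprints, against 308 and 284 CPM of mRNA, in T cells (log2 difference 0.93 ± 0.27, edgeR adjusted p = 0.0339). In B cells it had 510.1 and 657 CPM, against 277 and 268 CPM (0.88 ± 0.27, adjusted p = 0.0543). Hnrnpd, the AU-rich element binding protein AUF1, had 439.9 and 389 CPM of footprints, against 228 and 198 CPM of mRNA, in B cells and 361 and 462 CPM, against 219 and 197 CPM, in T cells. Its log2 differences, 0.74 ± 0.25 and 0.73 ± 0.25, missed the threshold (adjusted p = 0.0699 and 0.0580). Hnrnpm had 659.9 and 405 CPM of footprints, against 269 and 251 CPM of mRNA, in B cells (0.81 ± 0.33, adjusted p = 0.116), and 417 and 295 CPM, against 287 and 279.9 CPM, in T cells (0.13 ± 0.33). Hnrnpa0, an A/B-type hnRNP that binds AU-rich mRNAs and carries a start tract, had 505 and 668 CPM of footprints, against 361 and 337 CPM of mRNA, in B cells (0.52 ± 0.26, adjusted p = 0.191), and 439.7 and 549 CPM, against 414 and 365 CPM, in T cells (0.09 ± 0.26). For these genes the footprint estimate was above that of mRNA in both cell types, but of the 4 only Hnrnpab in T cells passed. Hnrnph2, of the hnRNP F and H group, had 117 and 137 CPM of footprints, against 76.5 and 64.1 CPM of mRNA, in B cells (0.62 ± 0.25) and 72.2 and 111 CPM, against 54.7 and 55.3 CPM, in T cells (0.41 ± 0.26). Hnrnpu stood at 0.75 ± 0.30 in B cells and 0.08 ± 0.30 in T cells, Hnrnpa2b1 at 0.72 ± 0.32 and 0.26 ± 0.32, and Hnrnph3 at -0.52 ± 0.43 and 0.97 ± 0.35. The estimates of Hnrnpl were 0.39 ± 0.29 and -0.03 ± 0.29, and those of Hnrnpk were -0.07 ± 0.26 and -0.67 ± 0.27. The other 6, Hnrnpc, Hnrnpdl, Hnrnph1, Hnrnpr, Hnrnpul1 and Hnrnpul2, lay between -0.27 and 0.36 in B cells and between -0.54 and 0.06 in T cells, and none of these passed. Hnrnpll in T cells, with its 29 footprint counts, stood at -0.20 ± 0.58.

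Srsf7, Hnrnpa1 and Hnrnpf kept their calls in both cell types with any 1 of the 8 libraries left out, and Srsf3 and Srsf10 kept theirs in B cells, and Srsf2 in T cells. Without T cell footprint library 1, the deepest footprint library, 4 members were called in T cells. The estimates then were -1.92 for Srsf3 (edgeR adjusted p = 0.0628), -1.33 for Hnrnpa3 (0.0799), -1.90 for Srsf6 (0.0812), -1.68 for Srsf10 (0.0988), 0.79 for Hnrnpab (0.165) and -0.44 for Srsf4 (0.599). Without T cell footprint library 2 Srsf6 (-1.47, adjusted p = 0.0577) and Srsf10 (-1.15, 0.0550) were not called, and Srsf10 was not without T cell RNA-seq library 4 (-1.15, 0.0518). Hnrnpab was not called without T cell RNA-seq library 1 (1.02, adjusted p = 0.0865) or 4 (0.92, 0.122) or B cell RNA-seq library 3 (0.97, 0.0509), nor Srsf4 without B cell footprint library 1 (-0.89, 0.0578) or any RNA-seq library (-1.01 to -0.92, 0.0696 to 0.111). In B cells 5 members were called without footprint library 3 and without RNA-seq library 1 or 3. Srsf2 was not called without any 1 of the 4 B cell libraries (-1.11 to -0.91, adjusted p = 0.0567 to 0.113). Srsf4 was not without any of these or either T cell RNA-seq library (-1.36 to -1.06, 0.0513 to 0.150). Srsf6 was not without footprint library 3 (-0.96, 0.0976), RNA-seq library 1 (-1.23, 0.0828) or RNA-seq library 3 (-1.36, 0.0672), and stood at -1.94 without footprint library 1.

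The gap between the families can be put in raw counts of the same libraries, where no scaling between libraries enters. This restates the same data and gives most weight to the members with the most counts. SR proteins made 15.3% and 14.6% of the members' counts in B cell footprints, against 28.2% and 26.8% in B cell mRNA. In T cells they made 14.8% and 17.5% in footprints, against 25.8% and 26.1% in mRNA. No footprint library reached any mRNA library. Among genes that pass the footprint filter alone, an alternative chosen after seeing the data, the all-gene median was 0.01 in B cells and -0.04 in T cells. There 5 of 9 SR proteins were lower in each cell type, where 25.2% of all genes in B cells and 32.7% in T cells were called in either direction, with medians of -1.22 and -1.53, and the hnRNPs had medians of 0.16 and -0.19, with 10 of 19 above the all-gene median in B cells and 5 of 19 in T cells. Footprints come from coding sequence and are short, while RNA-seq fragments come from whole transcripts, and the parts of transcript length, untranslated sequence and noncoding transcript forms in the ratio were not tested. Srsf3 and Hnrnpa1 have annotated pseudogene copies, Srsf3-ps, Hnrnpa1l2-ps and Hnrnpa1l2-ps2, with which short footprints could share sequence, and the part of such copies in the low ratios of both genes was not tested. Further, 11 members overlap another annotated gene, among them Srsf2 (Mfsd11), Srsf4 (Gm12992), Srsf9 (Gatc), Hnrnpab (Phykpl) and Hnrnpf (4933440N22Rik), so that their counts are less certain.

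**Figure D5:**
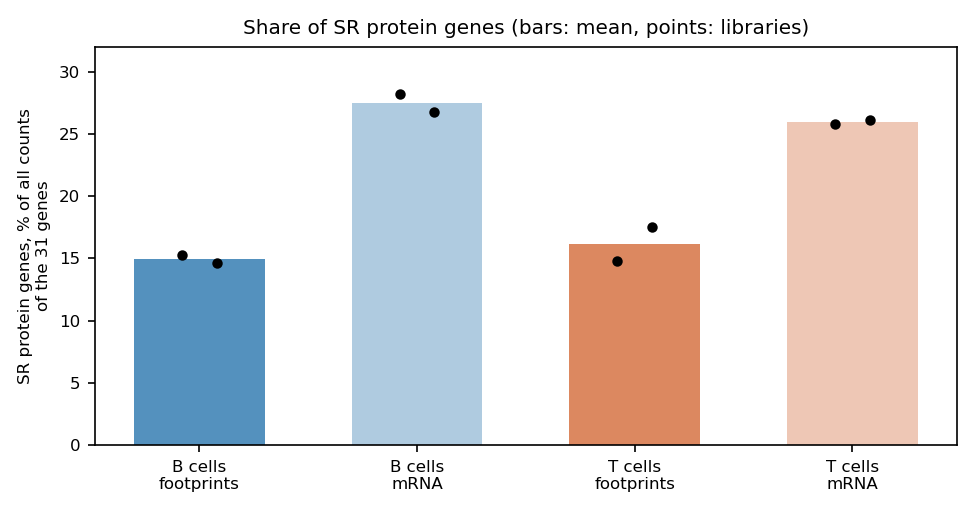
Counts of the 11 SR protein genes as a percentage of the counts of all 31 genes; bars are means of 2 libraries and points are the libraries. Footprint libraries lie between 14.6% and 17.5% and mRNA libraries between 25.8% and 28.2%.

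Genes that work with these families were followed in the same fits. Among 11 SR protein kinases and import receptors 1 was higher and 1 was lower in B cell mRNA. Srpk3, a kinase of SR proteins, stood at a log2 difference of 7.28 ± 0.29 (edgeR adjusted p = 0.00174) and was also higher in footprints, at 5.40 ± 0.91 (adjusted p = 0.00192). Srpk1, its paralogue, was lower in mRNA (-1.54 ± 0.15, adjusted p = 0.00729). No other gene of the companion lists was called in B over T cell footprints. In mRNA 0 of 18 SR-related proteins, 0 of 15 other hnRNP-class proteins, 0 of 17 U1 and U2 snRNP proteins and 0 of 13 tri-snRNP proteins were called, beside the 18.5% of all genes. In the Sm core Snrpd3 (-0.61 ± 0.12, adjusted p = 0.0359) was lower among 7 tested. Mbnl1, a muscleblind splicing regulator, was lower (-0.91 ± 0.18, adjusted p = 0.0324) among 18 other regulators of alternative splicing. Upf3b, a nonsense-mediated decay factor, was higher (0.81 ± 0.19, adjusted p = 0.0471) among 14.

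In footprints over mRNA the companion lists held calls in both directions, to be read beside 12.3% lower and 6.51% higher of all genes in B cells, 18.6% and 8.91% in T cells, and all-gene medians of -0.44 and -0.54. SR-related proteins were lower in 3 of 18 in B cells, and lower in 2 and higher in 1 of 18 in T cells, with medians of -0.64 and -0.44. Rsrp1, which encodes an arginine and serine rich protein, stood at -2.82 ± 0.34 in B cells and -3.24 ± 0.33 in T cells (edgeR adjusted p = 0.00150 and 0.000542). Of the 11 kinases and import receptors 1 was higher and 1 lower in each cell type, and Tnpo1, an import receptor for hnRNPs, was the higher one in both (0.95 ± 0.28 and 1.47 ± 0.27). The other hnRNP-class proteins were higher in 2 and lower in 2 of 15 in B cells, and higher in 2 and lower in 3 in T cells, with medians of 0.23 and 0.07. Ybx1, a cold shock domain protein that binds mRNA, was lower in both (-2.14 ± 0.30 and -2.35 ± 0.30) and Elavl1, the stabilising protein HuR, was higher in both (1.41 ± 0.29 and 1.36 ± 0.28). Among tri-snRNP proteins Prpf8, the core of the spliceosome's active site, was higher in both (0.95 ± 0.27 and 1.40 ± 0.27), and the list of 13 had 2 higher and 0 lower in B cells, and 2 higher and 1 lower in T cells, with medians of 0.26 and 0.24. Of 17 U1 and U2 snRNP proteins 1 was higher and 3 were lower in B cells, and 3 were higher and 3 lower in T cells, with Snrnp70, of the U1 particle, lower in both (-1.61 ± 0.36 and -1.51 ± 0.35). The Sm core had 2 higher and 1 lower of 7 in B cells and 2 higher in T cells, and Snrpd3 was higher in both (1.84 ± 0.31 and 1.17 ± 0.30). Other splicing regulators were higher in 5 of 18 in each cell type, Celf2 among them (1.57 ± 0.26 and 1.35 ± 0.26), and lower in 1 in B cells and 3 in T cells. Of the 14 decay factors 1 was higher in each cell type, Magoh of the exon junction complex (1.36 ± 0.26 and 1.78 ± 0.25), and 2 in B cells and 3 in T cells were lower, Smg5 among them (-2.42 ± 0.42 and -1.48 ± 0.36).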

How the data were processed

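RNA-seq and ribosome profiling libraries of resting B and T cells were used, 2 per group. The deposited values are counts per gene, whole numbers, made by the authors with FastQC, Bowtie2, TopHat and HTSeq on mm10, per the submitters' processing notes; versions, counted feature, strand and annotation release were not given in the sources used here. Of the count columns 0 were left unused, and 0 rows name no gene. Symbols came from a names table (53620 of 53801 IDs matched) and gene classes, overlaps and promoters from RefSeq for GRCm38.p6. Genes passing filterByExpr (minimum count 10, total 15) were tested with edgeR 4.0.16 in R 4.3.3, by its quasi-likelihood test after TMM scaling, at a Benjamini-Hochberg adjusted p of 0.05 over all genes tested. B over T cells used the 4 libraries of an assay (2 residual degrees of freedom); footprints over mRNA and translational efficiency, their difference between cell types, used all 8 (4 residual degrees of freedom). A value after ± is the SE of a log2 difference, and intervals are 95%. The floor of 3 counts covers only counting error, and only that of the B cell counts. The script was tested on simulated data. Alternatives used limma 3.58.1 and DESeq2 1.42.0 among others.

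In each group the 2 libraries differed beyond sampling noise (chi-square per degree of freedom 4.43 to 29.4). The labels do not say that they come from separate animals. In RNA-seq, Xist and Y-linked counts show that the libraries of a group do not come from the same animal. The 4 Y-linked genes had 3 of 627833 counts in T cell footprint library 1 and 35 of 136433 in library 2, so these libraries differ in the same way. In B cell footprints they had 72 and 53 counts, and the spread between those libraries may be technical. The members and lists were chosen with earlier results of these data known. Members given with every library's value were those called between cell types, the 5 with the highest mean CPM per assay, the 4 highest and 4 lowest in footprints over mRNA per cell type, and Hnrnpll, Srsf1, Srsf3, Hnrnpa1 and Hnrnpl. Srsf2, Srsf4, Srsf5, Srsf7, Srsf9, Srsf10, Srsf11 and Hnrnpa3, where outside that rule, were chosen after their values were seen. Companion genes named are among the 3 with the smallest p per list and comparison.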

Additional observations from a re-analysis of the deposited data

How the results depend on the processing

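In mRNA the count of 2 members called was 1 with no filter beyond 1 count and 1 with all 8 libraries in a single model, 4 with protein-coding genes alone (2 higher, 2 lower), 4 with a term for the libraries numbered 1, and 1 to 1 with a library left out. The median over members was -0.10 to 0.10 with a library left out. In footprints the count of 0 was 1 with no filter, and the median was 0.15 to 0.40 with a library left out. For translational efficiency the median was -0.033 to 0.33 with a library left out. For footprints over mRNA in B cells the count of 8 was 15 in DESeq2 (6 higher, 9 lower) and 5 to 8 with a library left out. The median of -0.27 was -0.16 with RLE scaling, -0.15 in DESeq2, -0.15 in limma voom, -0.20 with TMM within each assay, -0.37 among genes passing the footprint filter, and -0.53 to -0.069 with a library left out. In T cells the count of 10 was 4 to 12 and the median -0.34 to 0.027 with a library left out. RLE scaling moved the all-gene median to -0.34 in B cells and -0.42 in T cells. The cause of these changes was not tested. No called member changed direction.

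With a replicate block, which leaves 1 residual degree of freedom, the count in B cells was 7, in T cells 6, and for translational efficiency 0. B cell libraries of the same number did not deviate together (r = -0.0077 over 13227 genes), and B cell footprint library 1 had 72 counts of the 4 Y-linked genes, unlike RNA-seq library 1 with 8. T cell footprint library 1 had 3 such counts and RNA-seq library 1 had 6, but these groups share only the number 1, so pairing was not checked there. The numbers are not taken to pair the assays. B and T cells also share only the number 1, and the nearest to a block in mRNA was the term for libraries numbered 1, above.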
